A study of Mus musculus with 2 samples.

Results

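Serum amyloid A (Saa1, Saa2, Saa3 and Saa4), the orosomucoids Orm1 and Orm2, haptoglobin (Hp), hemopexin (Hpx), lipocalin-2 (Lcn2) and the feedback inhibitor Socs3 were examined in the livers of mice that carry 1 disrupted copy of Yap1. These 10 genes were chosen by name as acute-phase genes, together with the inhibitor of the pathway that drives them. Earlier results of these data were known when the choice was made. All probe sets annotated with exactly 1 of these symbols were taken, which gave 14 of the 45101 probe sets on the array. Where a gene had several, the brightest over the pair of arrays stood for it. All 10 genes had a mean of at least 6 on the log2 scale, the level taken as measured here, as did 9299 of the 18193 genes with a symbol of their own.

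The Yap+/- group was 1 pool of livers from 5 mice heterozygous for Yap, and the Yap+/+ group was 1 pool of livers from 5 wild-type mice. Both were C57BL/6, after at least 6 generations of breeding onto that background, untreated, and killed on postnatal day 30. How the Yap allele was disrupted, the sex of the mice and the hour of sampling were not stated by the submitters in the labels. Each pool was hybridised to 1 Affymetrix array, whose probe sets each combine several short probes for a transcript, after a labelling reaction that starts at the 3-prime end of the RNA. There are no replicates, so no difference between the genotypes was tested, and no error of a difference or p-value is given. In pooled whole liver, fewer cells of a type and less RNA per cell cannot be told apart.

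The acute-phase response is the change in plasma proteins made by the liver during inflammation or injury. Interleukin-6 binds its receptor and the shared subunit gp130, JAK kinases then activate the factor STAT3, and STAT3 acts with C/EBP-beta, C/EBP-delta and NF-kappaB on the genes of the secreted proteins. SOCS3 is itself induced by STAT3 and shuts gp130 signalling down. Serum amyloid A proteins travel on high-density lipoprotein, orosomucoids bind drugs and lipids in plasma, haptoglobin captures free haemoglobin, hemopexin captures free haem, and lipocalin-2 withholds iron from bacteria by binding their siderophores. Most of these proteins are made chiefly by hepatocytes, whereas Saa3 and Lcn2 are also made by macrophages, neutrophils, adipocytes or epithelia in mice.

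The DNA upstream of the genes is shown first, because the signalling described above acts on it and because Saa1 and Saa2 are hard to tell apart by sequence. RefSeq promoter sequences for build GRCm38.p6 were at hand for 8 of the 10 genes, all except Orm1 and Hp, and the 250 bases before the RefSeq start were searched on both strands. The motifs were TTCNNNGAA for STAT factors, TTGCNNAA for C/EBP factors (on the other strand TTNNGCAA, so that a site such as that of Orm2 reads as a match on both), GGNNTTTCC for NF-kappaB and TATAAA for the TATA box. Of 32851 promoters of the same length, 7.02% held the STAT form, 9.56% the C/EBP form, 4.93% the NF-kappaB form and 12.4% the TATA form. The C/EBP form was in 7 of the 8, the STAT form in 1 (Socs3), the TATA form in 1 (Orm2) and the NF-kappaB form in 1 (Saa3, from 187 to 179 bases before the start). Lcn2 is shown over its whole window, since it had the largest difference between the pools, and 6 others over 30 bases around a match. Saa4, with C/EBP forms from 245 to 238 and from 52 to 45 bases before the start, is not printed. The capitals mark the matched letters, and each line reads 5′ to 3′ in the direction of the gene.
Lcn2, chr2:32387740-32387989, minus strand, C/EBP form from 216 to 209 bases before the start: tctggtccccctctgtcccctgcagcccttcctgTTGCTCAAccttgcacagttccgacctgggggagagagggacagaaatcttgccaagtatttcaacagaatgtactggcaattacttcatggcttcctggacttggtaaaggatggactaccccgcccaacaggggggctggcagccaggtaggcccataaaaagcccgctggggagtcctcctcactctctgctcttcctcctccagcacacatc
Socs3, chr11:117969501-117969530, minus strand, STAT form from 154 to 146 bases before the start: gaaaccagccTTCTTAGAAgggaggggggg
Saa3, chr7:46715757-46715786, minus strand, C/EBP form from 99 to 92 bases before the start: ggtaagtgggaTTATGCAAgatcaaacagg
Saa1, chr7:46743144-46743173, minus strand, C/EBP form from 182 to 175 bases before the start: ctgtgctcccaTTGCACAAtgagggagaat
Saa2, chr7:46751639-46751668, plus strand, C/EBP form from 183 to 176 bases before the start: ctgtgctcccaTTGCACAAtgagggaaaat
Orm2, chr4:63362318-63362347, plus strand, C/EBP form from 120 to 113 bases before the start: gagagaacattTTGCGCAAgacatttccca
Hpx, chr7:105600298-105600327, minus strand, C/EBP form from 200 to 193 bases before the start: tggctggaaatTTGCTGAAgggggtagggg

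A match is a description of letters and not a binding site. Saa1 and Saa2 shared 94.8% of aligned positions over the 250 bases, against 52.2% for Saa1 and Saa3 and 49.5% for Saa1 and Saa4. In the RefSeq gene table Saa3, Saa4, Saa1 and Saa2 follow one another on chromosome 7, with Saa1 and Saa2 read in opposite directions. Orm1 and Orm2 lie on chromosome 4 with Orm3 between them.

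The brighter probe set of Yap1 gave 9.24 in Yap+/- liver against 9.40 in Yap+/+ liver, and the other gave 5.77 in Yap+/- against 6.01 in Yap+/+. Both were slightly lower in the heterozygous pool, by 1.11-fold and 1.18-fold, and their position relative to the disrupted part of the gene is not stated in the labels. Hepatocyte markers were at the top of the range of the table, which ran from 2.49 to 15.2, with albumin at 15.1 on both arrays. The spread of the difference over measured genes, as a robust SD, was 0.15 on the log2 scale. Between the brightest pair of measured probe sets of a gene, over 3406 genes, that difference varied by a robust SD of 0.17. The excess of 3-prime over 5-prime signal in control transcripts was larger on the Yap+/- array, at 1.57 against 1.37 on the Yap+/+ array for beta-actin, 0.49 against 0.27 for Gapdh and 5.51 against 5.31 for pyruvate carboxylase (log2), and its part in the differences below was not tested.

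The 10 genes differed in both directions between the pools. Lcn2 was 2.15-fold lower in Yap+/- liver, Socs3 was 1.53-fold higher and Saa3 was 1.44-fold higher. The other 7 genes lay between 20% lower and 25% higher. Of the 10, 0 were at least 2-fold higher and 1 was at least 2-fold lower, where 0.0968% and 0.226% of the 9299 measured genes were. At 1.5-fold, 1 was higher and 1 lower, where the shares of measured genes were 0.699% and 0.645%. At the smallest step counted, 2 were higher by 25% or more and 1 lower by 20% or more, against 3.86% and 3.18% of measured genes. By any amount, 7 were higher and 3 lower, where 48.8% of measured genes were higher and 49.6% lower. The median difference was 0.11 on the log2 scale, against 0.00 for all measured genes, and the mean was 0.033, drawn down by Lcn2.

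**Figure D1:**
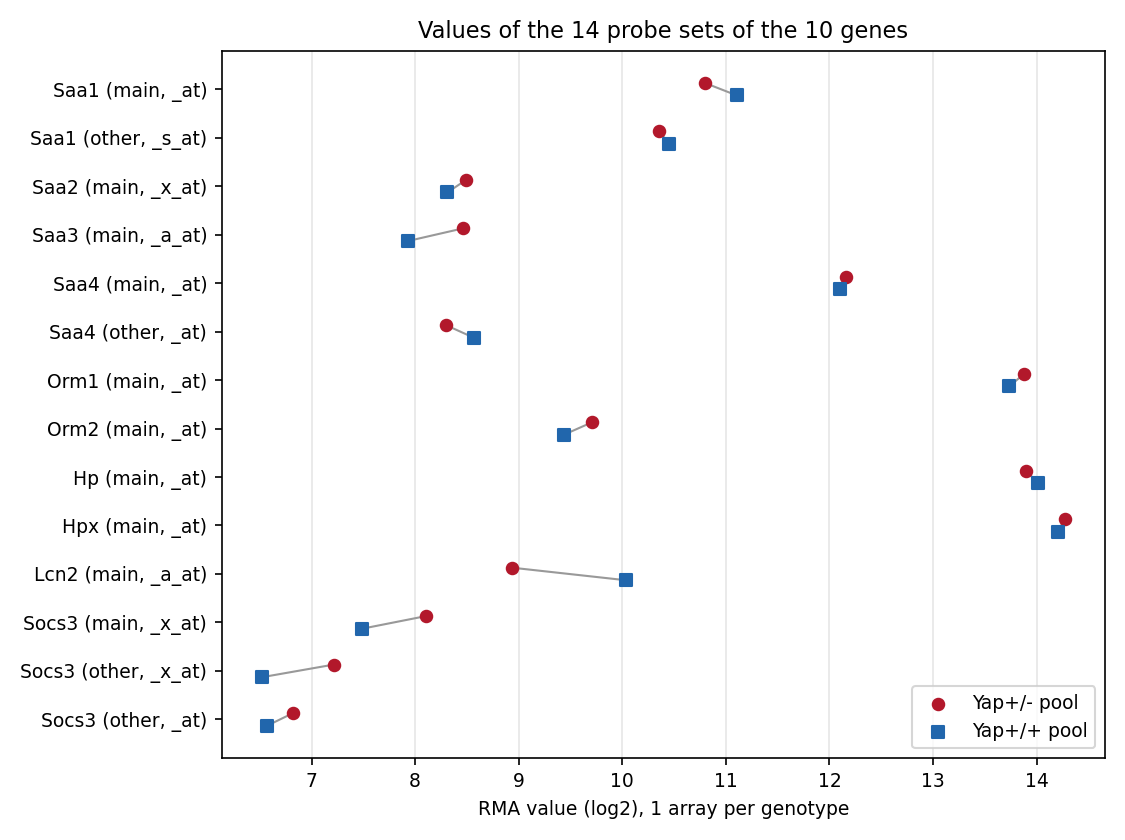
RMA value (log2, horizontal axis) of each of the 14 probe sets of the 10 genes in the Yap+/- pool (red circles) and the Yap+/+ pool (blue squares), 1 array each. Lcn2 is the only gene whose points lie more than 1 unit apart (8.93 in Yap+/-, 10.04 in Yap+/+), while Hp, Hpx and Orm1 sit near 14 on both arrays.

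Lcn2, the siderophore-binding lipocalin, was measured by a single probe set (1427747_a_at, whose suffix marks variants of the same gene). Its value was 8.93 in the Yap+/- pool and 10.04 in the Yap+/+ pool, a log2 difference of -1.10. It was the only one of the 10 genes past 2-fold, and both values were far above the median of all probe sets, 4.92 in Yap+/- and 4.93 in Yap+/+. Among the measured genes, 18 were lower by more than Lcn2 (0.194%), and 24 had a larger difference in either direction. Its difference was 8.74 times the robust SD of genes of similar level (1 of 20 bins by mean). No second probe set carries its symbol, so the value has no check on the arrays.

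Lipocalin-2 is stored in neutrophil granules and is also made by duct and mucosal epithelium, hepatocytes and macrophages. Of 13 neutrophil markers on the array, 9 were higher and 4 lower in Yap+/-, with a mean log2 value of 4.84 in Yap+/- and 4.55 in Yap+/+. Only 2 were measured. S100a9, a calcium-binding protein of neutrophils and monocytes, was at 7.02 in Yap+/- against 5.58 in Yap+/+, the opposite direction to Lcn2. Csf3r, the receptor for granulocyte colony-stimulating factor, read 6.83 in Yap+/- and 6.86 in Yap+/+. The other 11 had means under 6, and those named next were chosen after their values were seen. S100a8, the partner of S100a9, had the largest difference of the list, at 5.95 in Yap+/- against 4.36 in Yap+/+. These partners drew the list mean up, while the median difference over the 13 markers was 0.11 on the log2 scale. Among the granule genes, Ngp stood at 5.03 in Yap+/- against 4.49 in Yap+/+, and Mmp8 at 3.38 in Yap+/- against 3.79 in Yap+/+. Mmp9 stood at 5.18 in Yap+/- against 5.09 in Yap+/+. Its second probe set went the other way, at 4.34 in Yap+/- against 4.51 in Yap+/+. Ltf, Camp, Mpo and Elane were below 5 on both arrays, with Ltf, lactoferrin, at 3.84 in Yap+/- and 3.70 in Yap+/+. Camp and Mpo were lower, by -0.038 and -0.10 on the log2 scale, and Elane was higher, by 0.26. The part of neutrophils in the Lcn2 difference was not tested.

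Most biliary epithelial markers ran in the same direction as Lcn2. By the brightest probe set of each of the 10 on the array, 1 was higher and 9 were lower. The mean was 6.49 in Yap+/- and 6.95 in Yap+/+. The median difference over the 10 was -0.15 on the log2 scale. All 4 measured ones were lower, 1 by 2-fold, with a median of -0.17. That one was Muc1, a membrane mucin, which read 5.51 in Yap+/- and 7.19 in Yap+/+. Krt19, a keratin of ducts, was at 4.83 in Yap+/- against 6.73 in Yap+/+, with a mean under the minimum, and was chosen after its value was seen. Epcam, an epithelial adhesion molecule, also chosen so, stood at 5.23 in Yap+/- against 5.35 in Yap+/+. Its second probe set, at a similar level, went the other way, at 5.36 in Yap+/- against 5.22 in Yap+/+. Krt7, another duct keratin, chosen likewise, stood at 4.72 in Yap+/- against 4.88 in Yap+/+. Sox9, the only one higher by its brightest probe set, chosen likewise, read 5.81 in Yap+/- and 5.56 in Yap+/+, with a mean under the minimum. The measured keratins Krt8 and Krt18, chosen likewise, differed by -0.079 and -0.12, within the 0.17 by which probe sets of a gene disagree. They read 11.4 and 11.2 in Yap+/-, and the part of hepatocytes in their signal was not tested. Prom1, the remaining measured marker, chosen likewise, read 8.54 in Yap+/- and 8.76 in Yap+/+. The part of duct or other epithelium in the Lcn2 difference was not tested. All 12 Kupffer cell markers, read below beside Saa3, ran opposite to Lcn2, with a median of 0.29. The measured hepatocyte markers had a median of 0.025. The part of either cell type in the Lcn2 difference was not tested.

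**Figure D2:**
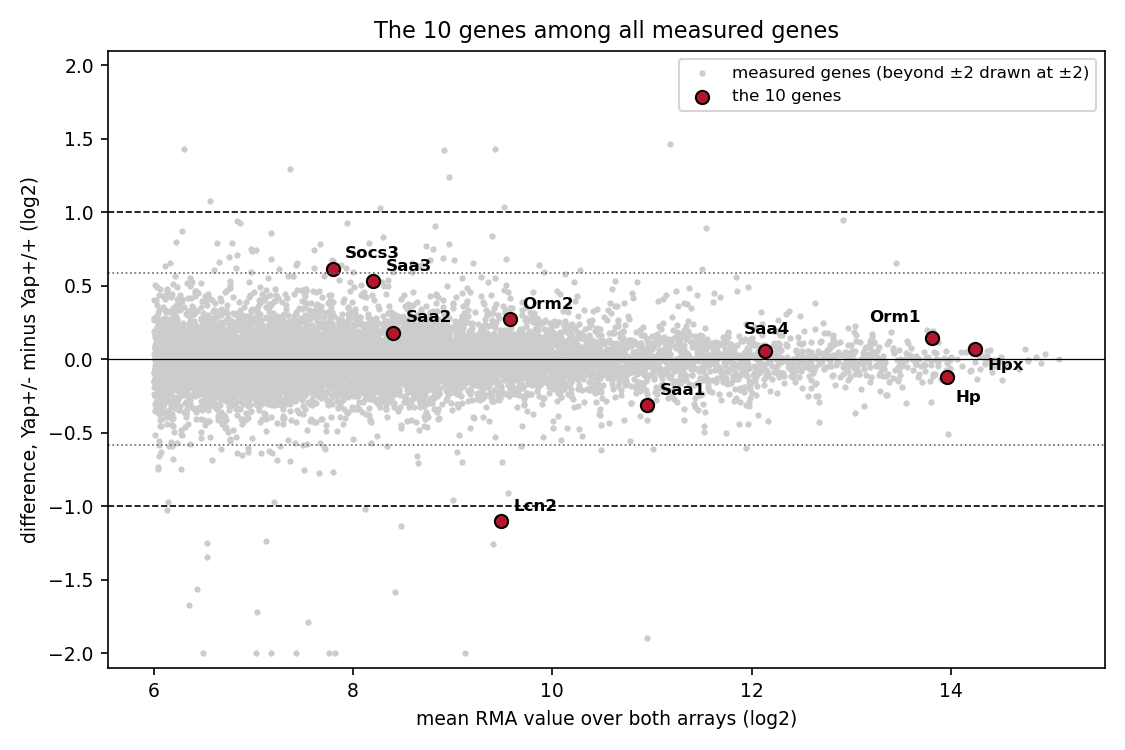
Difference between the pools (Yap+/- minus Yap+/+, log2, vertical axis) against the mean level over both arrays (log2, horizontal axis) for 9299 measured genes (grey) and the 10 genes (red). Dashed lines mark 2-fold and dotted lines 1.5-fold; Lcn2 lies below the lower dashed line at -1.10 and Socs3 above the upper dotted line at 0.62, and the remaining 8 lie between the dotted lines.

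Socs3, the feedback inhibitor of gp130 signalling, was higher in Yap+/- liver on all 3 of its probe sets. The brightest (1455899_x_at) read 8.10 in Yap+/- and 7.49 in Yap+/+, a log2 difference of 0.62. The second (1456212_x_at) read 7.21 in Yap+/- and 6.52 in Yap+/+, a difference of 0.69. Both carry the suffix that marks probes shared with other transcripts. The probe set without such a suffix (1416576_at) read 6.82 in Yap+/- and 6.57 in Yap+/+, a difference of 0.25, or 1.19-fold. The direction was the same on each, but the size was not, and Socs3 passed 1.5-fold on the shared probe sets alone. Among measured genes, 56 were higher by more than the brightest Socs3 probe set (0.602%).

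Saa3, a serum amyloid A of macrophages, adipocytes and epithelia as well as liver in mice, read 8.46 in Yap+/- and 7.93 in Yap+/+. The difference of 0.53 was 3.77 times the robust SD of genes of similar level, and 82 measured genes were higher by more (0.882%). It rests on 1 probe set (1450826_a_at). Macrophage markers ran in the same direction. All 12 Kupffer cell markers were higher in Yap+/-, with a median of 0.29 and a mean level of 9.25 in Yap+/- and 8.93 in Yap+/+. Of the 12, 6 were higher by 25% or more. The scavenger receptor Marco read 7.92 in Yap+/- and 7.30 in Yap+/+, although its second probe set, below the minimum, was lower. Cd68, a lysosomal glycoprotein, read 7.46 in Yap+/- and 6.98 in Yap+/+, and Cd5l, a secreted macrophage protein, 11.7 in Yap+/- and 11.2 in Yap+/+. Of 4 adipocyte markers, only Fabp4, a fatty acid binding protein that endothelium and macrophages also make, was measured, at 9.11 in Yap+/- against 8.90 in Yap+/+. Adipoq, adiponectin, which like Fabp4 was chosen after its value was seen, stood at 3.38 in Yap+/- against 3.41 in Yap+/+, near the lowest value of the table. The part of macrophage RNA in the Saa3 difference was not tested.

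The other serum amyloid A genes gave small differences of either sign. Saa1, the circulating form, read 10.8 in Yap+/- and 11.1 in Yap+/+ on 1450788_at, 1.24-fold lower. That difference was 2.76 times the robust SD of genes of similar level. The second Saa1 probe set (1419075_s_at) read 10.4 in Yap+/- and 10.5 in Yap+/+, 1.06-fold lower. Saa2, the other circulating form, had 1 probe set (1449326_x_at), which read 8.49 in Yap+/- and 8.31 in Yap+/+, 1.13-fold higher. This probe set and the second one of Saa1 were designed from the same transcript record, which the RefSeq table gives to Saa2, and the table lists each gene's symbol as an older name of the other. The pair nevertheless differed in sign, by -0.091 and 0.18 on the log2 scale, and which of the 2 genes either reads is uncertain.

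Saa4, the constitutive member of the family, whose level changes little in inflammation, was measured by a bright and a dimmer probe set. The bright one (1419318_at) read 12.2 in Yap+/- and 12.1 in Yap+/+, 1.04-fold higher. The dimmer one (1419319_at) read 8.30 in Yap+/- and 8.57 in Yap+/+, a log2 difference of -0.27. They disagreed in sign, so no direction is given for Saa4. Across the family, 3 of 4 representing probe sets were higher in Yap+/-, and Saa3 alone was higher by 25% or more, with 0 lower by 20% or more.

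Orm1 and Orm2, the orosomucoids, were both slightly higher in Yap+/- liver, each on a single probe set. Orm1 read 13.9 in Yap+/- and 13.7 in Yap+/+, a log2 difference of 0.14. Orm2 read 9.71 in Yap+/- and 9.43 in Yap+/+, a difference of 0.27, or 1.21-fold. That was 2.18 times the robust SD of genes of similar level. Orm3, the family member between them on chromosome 4, read 7.38 in Yap+/- and 7.95 in Yap+/+, 1.49-fold lower. The family thus differed in both directions. None of these 3 probe sets carries a suffix for shared probes, and binding between family members was not tested.

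Hp and Hpx, which clear haemoglobin and haem, differed least together with Saa4. Hp read 13.9 in Yap+/- and 14.02 in Yap+/+, 1.09-fold lower. Hpx read 14.3 in Yap+/- and 14.2 in Yap+/+, 1.05-fold higher. Both lay within the 0.17 by which probe sets of a gene disagree, as did Orm1 and the bright probe set of Saa4. Among genes of similar level the robust SD was smaller, at 0.090. Hp, Hpx, Orm1 and the bright probe set of Saa4 differed by 1.34, 0.75, 1.60 and 0.64 times it. Their values are close to the top of the scale, where arrays of this kind are known to compress differences. Receptors and clearance genes for the acute-phase proteins were also read. Hmox1, haem oxygenase, which degrades the haem that hemopexin delivers, read 6.64 in Yap+/- and 6.09 in Yap+/+, 1.47-fold higher. Fpr2, a formyl peptide receptor that binds serum amyloid A, read 6.72 in Yap+/- and 6.35 in Yap+/+, 1.29-fold higher. The 8 receptor and clearance genes had a median of 0.16, 6 of them higher and 2 lower. The 2 lower were Blvra and Blvrb, named after their values were seen, at -0.067 and -0.081 on the log2 scale. Slc22a17, a receptor for lipocalin-2, chosen after its value was seen, read 6.18 in Yap+/- and 6.09 in Yap+/+.

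**Figure D3:**
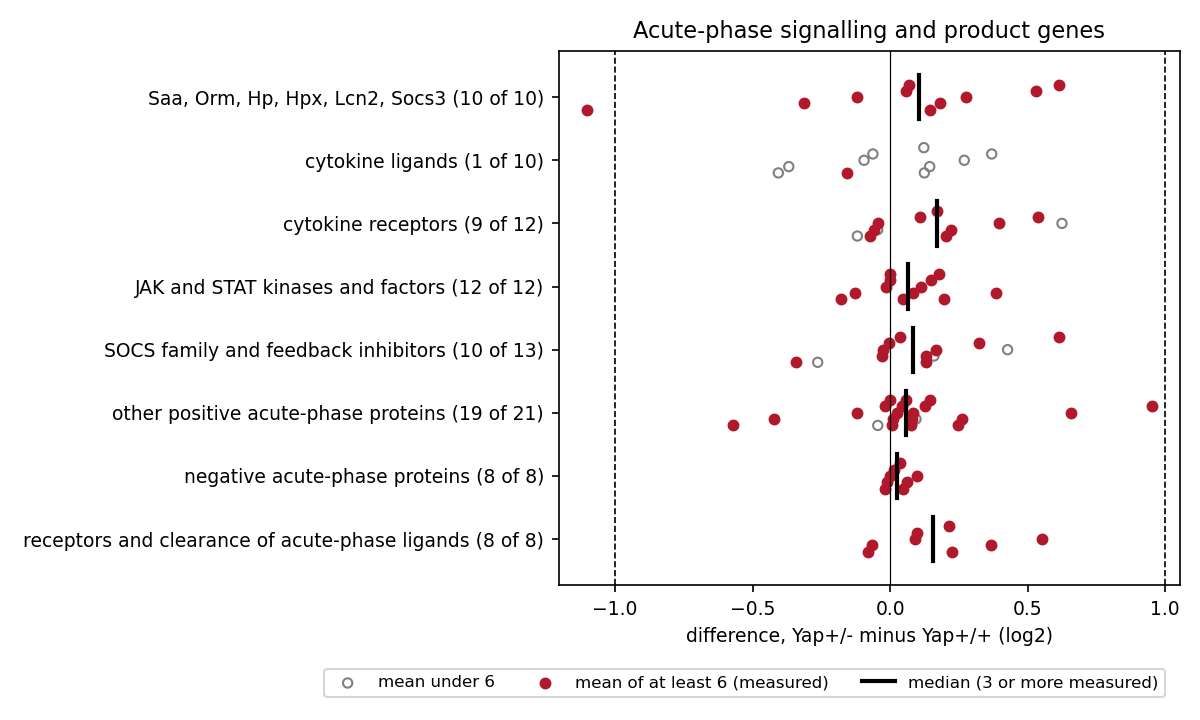
Difference between the pools (Yap+/- minus Yap+/+, log2, horizontal axis) for genes of the acute-phase pathway, with the number measured of the number on the array beside each list. Filled points had a mean of at least 6, open points a lower mean, black bars are medians where 3 or more genes were measured, and dashed lines mark 2-fold; Lcn2 at -1.10 is the only measured point past 2-fold.

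Upstream of these genes, the cytokines themselves were mostly at low levels in both pools. Of 10 cytokine genes on the array, 5 were higher and 5 lower, and only Ctf1, cardiotrophin-1, was measured, at 7.49 in Yap+/- and 7.65 in Yap+/+. Il6, the main inducer, chosen after its value was seen, read 3.33 in Yap+/- and 3.06 in Yap+/+, near the lowest value of the table. Il1b, interleukin-1 beta, chosen likewise, read 5.78 in Yap+/- and 6.19 in Yap+/+.

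Receptors were higher more often than lower, by small amounts. The 9 measured genes of this list were receptors and co-receptors, together with Lbp, a secreted lipopolysaccharide-binding protein, which was 1.08-fold higher. The 9 had a median of 0.17, 6 of them higher and 3 lower, and 2 were higher by 25% or more. Il1rap, 1 of the 3 lower, chosen after its value was seen, differed by -0.074. On its other measured probe set, which was dimmer, it differed by 0.60. Il1r1, the interleukin-1 receptor, read 8.62 in Yap+/- and 8.08 in Yap+/+, 1.45-fold higher. Lifr, the leukaemia inhibitory factor receptor, which pairs with gp130, read 11.3 in Yap+/- and 10.9 in Yap+/+, 1.31-fold higher. Il6st, gp130 itself, read 9.39 in Yap+/- and 9.19 in Yap+/+. Il6ra, the interleukin-6 receptor, read 8.84 in Yap+/- and 8.62 in Yap+/+, but its other measured probe set differed by -0.26 on the log2 scale, so its direction is not settled.

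The 12 kinases and transcription factors had a median of 0.065, 7 of them higher and 4 lower. Cebpb, C/EBP-beta, was the only one higher by 25% or more, and 0 were lower by 20%. It stood at 11.5 in Yap+/- and 11.1 in Yap+/+, 1.31-fold higher, with a smaller difference of 0.16 on its second probe set. The brightest probe set of Stat3 gave 9.52 in Yap+/- against 9.65 in Yap+/+, a difference of -0.13, while 2 of its 3 measured probe sets were higher, up to 0.24. Of the 10 measured SOCS family and feedback inhibitor genes, Socs3 included, the median was 0.083, with 6 higher and 4 lower. Socs2, an inhibitor of growth hormone signalling, read 9.06 in Yap+/- and 8.74 in Yap+/+, a log2 difference of 0.32. Cish, also a feedback inhibitor of STAT5 signalling, read 7.73 in Yap+/- and 8.08 in Yap+/+, 1.27-fold lower.

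Most further acute-phase products differed little. Of the genes listed here as positive acute-phase other than the 10, 19 were measured, with a median of 0.056. Of these, 15 were higher and 4 lower, with 2 higher by 25% or more and 2 lower by 20% or more. The higher pair were the metallothioneins Mt2, at 13.4 in Yap+/- and 12.4 in Yap+/+, and Mt1, at 13.8 in Yap+/- and 13.1 in Yap+/+, which bind zinc. The lower pair were Orm3 and Hamp, hepcidin, which read 12.5 in Yap+/- and 12.9 in Yap+/+ and was named after its value was seen. The fibrinogen chains Fga, Fgb and Fgg, named likewise, differed by at most 0.056. Mug1, murinoglobulin, named likewise, differed by -0.12, and its place in this list was not checked. Of 8 negative acute-phase genes, whose products fall in inflammation, the median was 0.026, with 5 higher and 2 lower, and 0 passed that size in either direction.

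**Figure D4:**
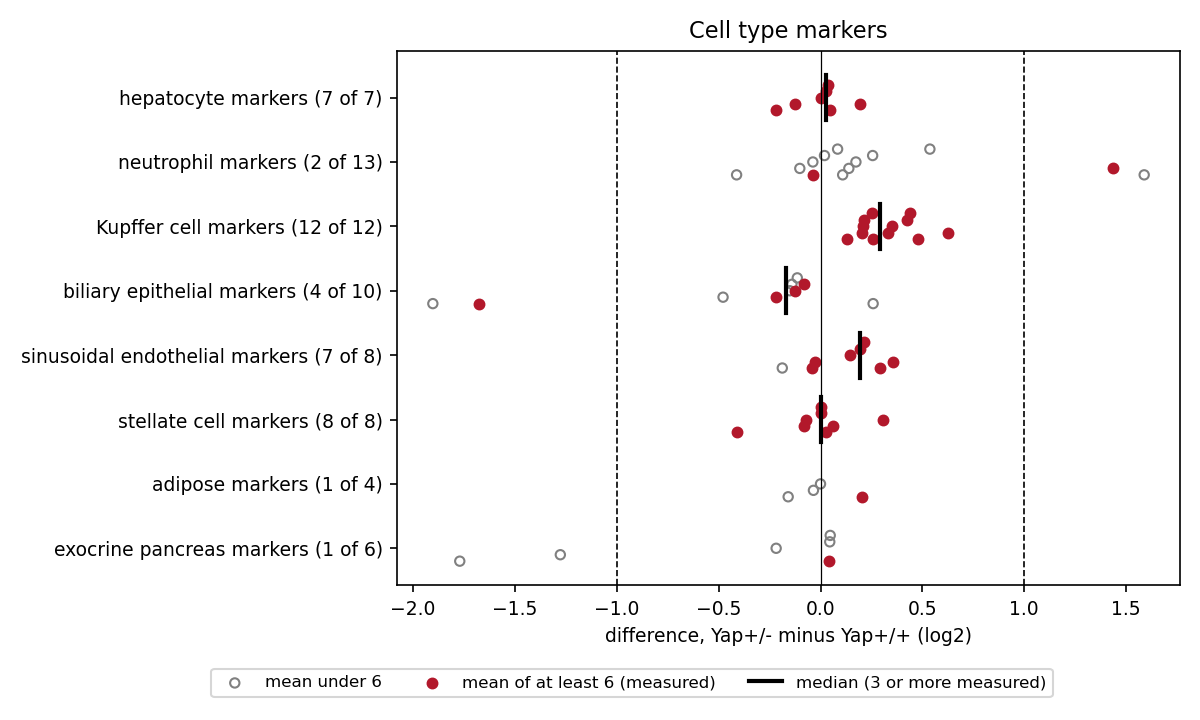
Difference between the pools (Yap+/- minus Yap+/+, log2, horizontal axis) for markers of liver and other cell types, with the number measured of the number on the array. Filled points had a mean of at least 6, open points a lower mean, black bars are medians where 3 or more were measured, and dashed lines mark 2-fold; all 12 Kupffer cell markers lie above 0, while Muc1 lies at -1.67.

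The remaining cell types were read for the same purpose. The 7 measured hepatocyte markers had a median of 0.025, with 4 higher and 2 lower, and 0 past that size. Of 7 markers of sinusoidal endothelium, 5 were higher and the median was 0.20, and the Fc receptor Fcgr2b was 1.28-fold higher, although 1 of its 4 measured probe sets was lower. Stellate cell markers had a median of 0.0016, with Des, desmin, 1.33-fold lower.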

How the data were processed

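RNA of 1 liver pool per genotype was measured on 1 Affymetrix array each. The authors deposited log2 values per probe set, obtained with RMA (a method of background correction, quantile normalisation and summary over probes) and Partek 6.5, per the submitters' processing notes. Sorted columns differed by at most 0.047, so an overall difference in RNA between the pools would be largely removed. Scanner files and detection calls were not used here, and the number of arrays limits precision. Symbols came from the annotation of the array platform, where 34945 probe sets had 1 symbol. No probe set named any of the 10 genes together with another gene.

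The difference was the value in Yap+/- minus that in Yap+/+. Genes were counted by size at 2-fold, 1.5-fold and a step of 25% higher or 20% lower, without a test. From each list of related genes, up to 3 measured genes with the largest difference past that step were named, and Il6ra, Il6st, Stat3 and Cebpb whatever their values. Genes named outside this rule are marked. The 10 genes and all lists were chosen with earlier results of these data known. The counting was tested on simulated data with differences set in advance, which checks the counting alone and not the error between pools. Listed genes without a probe set of their own symbol were not analysed here. Alternatives were other ways to represent a gene, 3 scalings, 64 added on the linear scale, other minimum levels and other thresholds. Promoters came from RefSeq tables for GRCm38.p6. Computations ran under Python 3.11.15 with pandas 2.3.3, numpy 2.4.6 and statsmodels 0.14.6, and plots under matplotlib 3.10.9.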

Additional observations from a re-analysis of the deposited data

How the results depend on the processing

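Lcn2 kept its direction and stayed past 2-fold under the 6 alternatives that gave it a value, with a log2 difference from -1.10 to -1.01. Because Lcn2 has 1 probe set, taking the mean of all probe sets or leaving out shared ones could not change its value. With only probe sets that carry no suffix, Lcn2, Saa2 and Saa3 had no value, so of the 7 genes left 0 were at least 2-fold or 1.5-fold lower. The count at least 1.5-fold higher, 1 (Socs3), became 0 with that choice, 0 with the mean of all probe sets, 0 with 64 added, 0 when probe sets shared with other transcripts were left out (chosen after seeing the data) and 2 at a step of 25%, and 0 genes were 3-fold lower. Socs3 ranged from 0.25 to 0.63, the lowest on its probe set without a suffix. Saa4 alone changed sign, to -0.11 with the mean of its probe sets. Over these alternatives and without Lcn2 the median of the genes ranged from 0.067 to 0.14, and 3 other scalings moved any of the 10 genes by at most 0.014. The deposited values were already quantile normalised, so these scalings had little room to move a gene. No paired analysis was possible because each genotype has 1 pool. Without replicates, none of this measures the spread between mice.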

Other observations

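Some genes of the pathway with a mean under 6 differed between the pools, at levels where a fold is not exact, and they were picked after their values were seen. Osmr, the oncostatin M receptor, which also pairs with gp130, read 6.17 in Yap+/- and 5.54 in Yap+/+. Socs1, the relative of Socs3 that inhibits interferon signalling, read 4.15 in Yap+/- and 3.72 in Yap+/+. Others were lower, such as Il1b, given above, and Il1a, interleukin-1 alpha, which read 5.70 in Yap+/- and 6.07 in Yap+/+. Of 6 exocrine pancreas markers on the array, 3 were higher and 3 lower in Yap+/-. Reg1 read 4.05 in Yap+/- and 5.82 in Yap+/+, and Ctrb1, chymotrypsinogen B, read 5.13 in Yap+/- and 6.41 in Yap+/+. Prss2 differed by -0.22 on the log2 scale, and Cpa1, Cela2a and Cela1 by 0.048, 0.045 and 0.041. Only Cela1, elastase 1, was measured, at 9.52 in Yap+/- and 9.48 in Yap+/+.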
